A study of Fundulus heteroclitus with 6 samples.

Results

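Embryos of the PCB-contaminated New Bedford Harbor (NBH) and of the reference site Scorton Creek (SC) were compared without added PCB-126. Both groups were Atlantic killifish embryos of 10 dpf that had received only the solvent DMSO. The comparison covers every isogroup whose NBH and SC reads together reached 10, which is 3570 of the 22732 isogroups of the table. An isogroup is a group of assembled contigs that is treated as the product of 1 gene, and its count is the number of reads that matched it uniquely. Each population had 1 DMSO library, prepared from equal amounts of RNA of several pools of embryos, and the parents were a small number of wild-caught fish of each site. A difference between populations therefore cannot be told apart from a difference between single libraries. The RNA was of whole embryos, so that fewer cells of a type and less RNA per cell cannot be told apart either. The matching libraries of embryos treated with PCB-126 were used where an NBH to SC difference of the same direction was sought in other libraries. For all 4 libraries the labels give a treatment of 6 h before sampling, whereas the study's methods describe a short exposure soon after fertilization.

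Fish of the NBH population are known for resistance to dioxin-like PCBs such as PCB-126, which act by binding a transcription factor, the aryl hydrocarbon receptor (AHR). When bound, the AHR switches on cytochrome P450 genes, and in sensitive embryos prolonged activation leads to edema and circulatory failure. A comparison of vehicle-treated embryos asks which transcripts differ between the populations without added PCB-126, here called basal expression. The paper does not exclude that differences between the parents affected the offspring. The files do not pair isogroups with gene names, none of the isogroup IDs matched the RefSeq gene table, and the labelled tissue could not be checked against marker genes. The 4 isogroups named here are therefore given by ID only.

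The deposited counts summed to 95410 reads for NBH with DMSO and 124000 reads for SC with DMSO, against 123644 and 132893 reads for NBH and SC with PCB-126. The compared isogroups held 78.9% of the NBH reads and 79.2% of the SC reads with DMSO. The libraries were 3′-anchored, which per the labels give 1 read for each transcript, and counts were compared without correction for length. Where no read was found, up to 3 reads remain possible, a limit of 3.14 reads per 100000 library reads for NBH with DMSO and 2.42 for SC with DMSO. NBH with DMSO was the shallowest of the 4 libraries.

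With DMSO, 465 isogroups were higher in NBH embryos than in SC embryos and 431 were lower. These are 13% and 12.1% of the 3570 isogroups tested, together 25.1%. A call required a p under 0.05 in Fisher's exact test (two-sided, reads of the isogroup against the rest of the library, Benjamini-Hochberg adjustment over all 3570) together with a difference of 2-fold or more in the share of the library. The test covers counting error only, so that it compares the reads of the 2 libraries and not the populations. The same rule called 26.8% of isogroups between NBH and SC with PCB-126, and 23.1% (NBH) and 22.9% (SC) between PCB-126 and DMSO within a population. The pairs within a population each share a library with the comparison described here. By the ratio alone, 796 isogroups (22.3%) were at least 2-fold higher and 979 (27.4%) at least 2-fold lower in NBH with DMSO, together 49.7%, and the median log2 ratio of NBH to SC was -0.06 with 0.5 reads added to each count. Ratios of few reads are coarse and the libraries differ in depth, so that this split is not read as a direction of the populations. Whether read number and depth account for it was not tested. The log2 ratios had an SD of 1.88 across isogroups, and 10% of isogroups lay below -2.28 and 10% above 2.09. Where a spread beyond counting error was added, the exact test of edgeR with its estimated common dispersion (a coefficient of variation of 46.7%) called 0 isogroups at an adjusted p under 0.05, although 432 had an unadjusted p under 0.05. That dispersion was estimated over the 4 libraries without replicates. It therefore includes any PCB-126 response that differs between the populations and is not a measured spread between replicate libraries. The quasi-likelihood test of edgeR, with the PCB-126 libraries added to the fit, called 9 higher and 8 lower. It tests the population difference over both treatments together, not the DMSO difference alone.

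**Figure D1:**
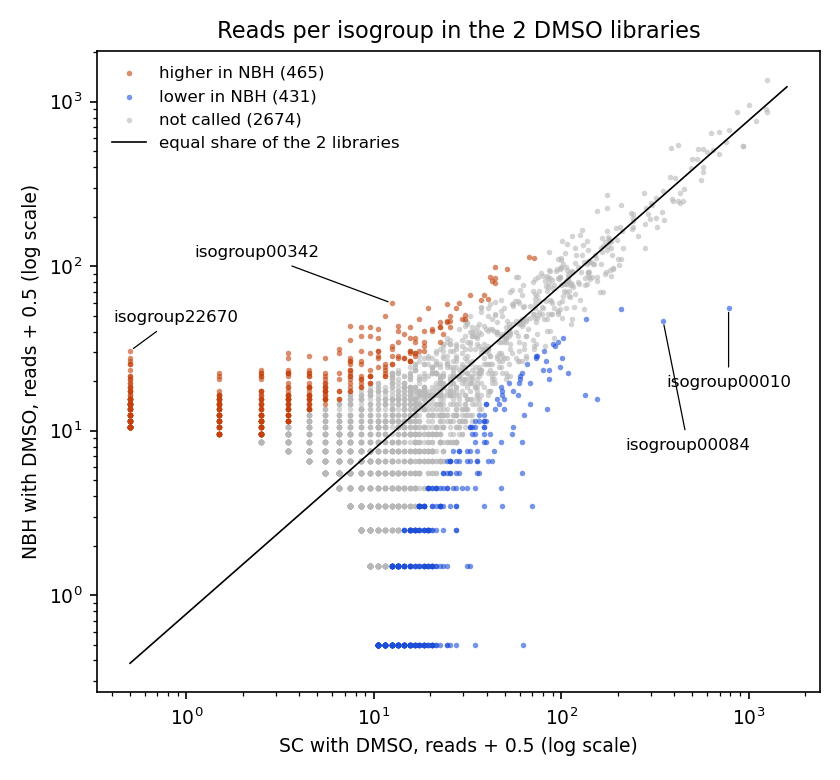
Reads per isogroup in NBH with DMSO (vertical axis) against SC with DMSO (horizontal axis), both as reads + 0.5 on log scales, for the 3570 isogroups compared. Orange points are the 465 called higher and blue points the 431 called lower in NBH, and the line marks an equal share of both libraries. Called isogroups of few reads lie far from the line, the 3 called isogroups with 200 reads or more are all below it, and isogroup00010 and isogroup00084 lie far below the line.

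The share of isogroups with fewer than 20 reads was similar among the called isogroups and among all isogroups tested. Of the 465 higher isogroups, 278 (59.8%) had fewer than 20 reads in the pair, as did 242 (56.1%) of the 431 lower isogroups and 1929 (54.0%) of all 3570. The median was 17 reads for the higher and 18 for the lower isogroups. At these counts a call needs a large ratio, and 364 of the higher and 350 of the lower isogroups differed by at least 4-fold. Among those with reads in both libraries, the median ratio was 5.85 for the higher isogroups, and the lower isogroups had a median of 5.64-fold lower in NBH. Just inside the minimum, 373 isogroups had exactly 10 reads, of which 44 were called higher and 42 lower, and just outside it 458 had 9 reads and were not tested.

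The share of called isogroups changed little with abundance up to about 100 reads and was small above 200. It was 27% of the 1929 isogroups with 10 to 19 reads, 25.8% of the 1055 with 20 to 49 reads and 25.6% of the 285 with 50 to 99 reads. It was then 17.6% of the 159 with at least 100 but fewer than 200 reads and 2.11% of the 142 with 200 reads or more. The share past a ratio of 2 in either direction, called or not, was 62.9% at 10 to 19 reads and 2.11% at 200 reads or more. The most abundant transcripts thus had similar levels in the NBH and SC libraries: of the 142 isogroups with at least 200 reads, 139 were within a factor of 2, none was called higher and 3 were called lower. The largest ratio among these 142 was 1.99, with 269 reads in NBH and 176 in SC. The 10 isogroups of most reads (1345 to 2602 reads in the pair) had NBH to SC ratios of 0.744 to 1.41.

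**Figure D2:**
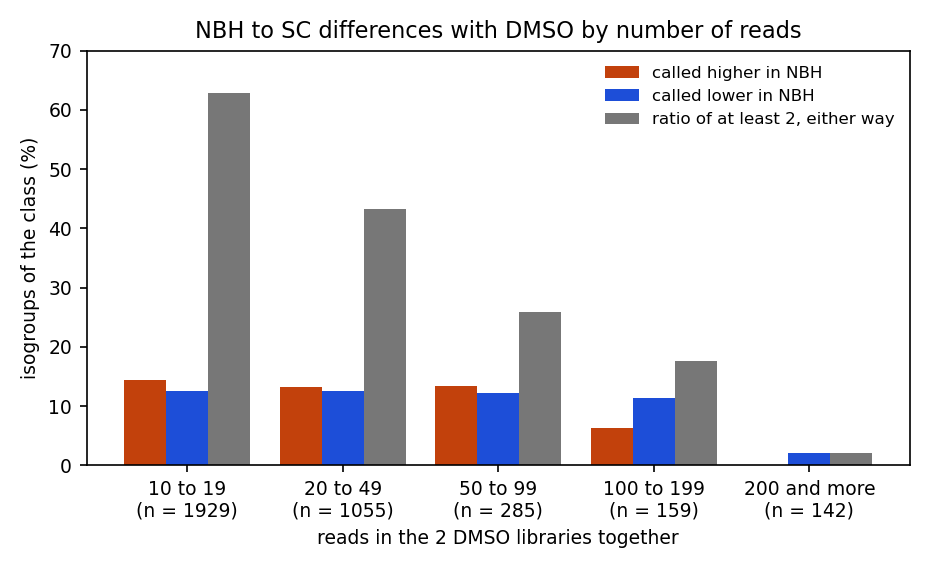
Share of isogroups (percent, vertical axis) that were called higher in NBH (orange), called lower in NBH (blue) or past a ratio of 2 in either direction with or without a call (grey), by the number of reads in the NBH and SC libraries with DMSO together (horizontal axis, with the number of isogroups). The called share is about 26% to 27% in the first 3 classes and 2.11% at 200 reads or more, where the single direction called is lower in NBH.

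Small ratios of abundant isogroups still exceeded counting error. At 200 reads or more, 55 of the 142 isogroups had an adjusted p under 0.05 in Fisher's exact test, although 3 of them passed the ratio of 2. The squared deviation of an isogroup from an equal share, divided by the variance that counting alone gives, would average 1 with counting error only. It averaged 4.37 at 10 to 19 reads, 6.90 between 100 and 200 reads and 12.7 at 200 reads or more, where it was 8.08 without the 3 called isogroups, isogroup00010 and isogroup00084 among them. The medians were 2.62, 2.84 and 3.56. Over all isogroups tested its mean was 5.05 in this pair (median 2.62). The mean was 5.56 between NBH and SC with PCB-126, 4.65 between PCB-126 and DMSO in NBH, and 4.98 between PCB-126 and DMSO in SC. The scatter between the DMSO libraries of the populations was therefore of the same order as that between any of these pairs, also within a population.

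Among the isogroups lower in NBH, isogroup00010 had the smallest p of all. It had 55 reads in NBH with DMSO and 781 in SC with DMSO. Per 100000 library reads this is 57.6 in NBH (exact 95% Poisson interval 43.4 to 75.03) and 629.8 in SC (586.4 to 675.6), 10.9-fold lower in NBH (exact 95% Clopper-Pearson interval 8.31 to 14.6). Fisher's exact test gave an adjusted p of 5.14e-124. It was rank 9 by reads in the SC library and rank 238 in the NBH library. With PCB-126 it had 37 reads in NBH and 1233 in SC, where it was rank 2, and was 31.0-fold lower in NBH (95% interval 22.4 to 44.2). Both NBH libraries were thus far below both SC libraries for this isogroup. In the quasi-likelihood test of edgeR over the 4 libraries, isogroup00010 had an adjusted p of 9.44e-41, but in the exact test of edgeR on the DMSO pair alone with the estimated dispersion it had an adjusted p of 0.241. The DMSO reads that chose this isogroup enter both tests, so that neither is separate support.

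The other isogroup of smallest p in that direction, isogroup00084, did not keep its direction. It had 46 reads in NBH with DMSO and 349 in SC with DMSO, 5.84-fold lower in NBH (95% interval 4.28 to 8.12), with an adjusted p of 5.85e-40 in Fisher's exact test. With PCB-126 it had 135 reads in NBH and 100 in SC, a ratio of 1.45 (95% interval 1.11 to 1.90). The SC library with DMSO was the high one, at 281.5 reads per 100000, against 48.2, 109.2 and 75.2 in NBH with DMSO, NBH with PCB-126 and SC with PCB-126. The quasi-likelihood test of edgeR over the 4 libraries did not call it (adjusted p = 0.408).

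Among the isogroups higher in NBH, isogroup00342 had the smallest p. It had 59 reads in NBH with DMSO and 12 in SC with DMSO, 6.39-fold higher in NBH, with an exact 95% interval of 3.40 to 13.1 and an adjusted p of 2.45e-09 in Fisher's exact test. With PCB-126 it had 70 reads in NBH and 21 in SC, a ratio of 3.58 (95% interval 2.17 to 6.14). Per 100000 library reads, the NBH libraries were at 61.8 with DMSO and 56.6 with PCB-126, and the SC libraries at 9.68 and 15.8, so that the counting intervals of the populations did not overlap with either treatment. Its adjusted p in the quasi-likelihood test of edgeR over the 4 libraries was 0.0069, and in the exact test of edgeR on the DMSO pair alone with the estimated dispersion 0.241. Both tests include the DMSO reads by which isogroup00342 was chosen and are no separate support.

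The next, isogroup22670, was read in a single library. It had 30 reads in NBH with DMSO and 0 in SC with DMSO, at least 13.0-fold higher in NBH when SC is set to 3 counts (exact 95% lower limit of the ratio 9.93, adjusted p = 3.87e-09, Fisher's exact test). It had 0 reads in NBH and 0 in SC with PCB-126. The 30 reads of NBH with DMSO are 31.4 per 100000, and the upper limits of the exact 95% Poisson intervals of the 3 other libraries are 2.78 to 2.98 per 100000. None of the edgeR tests called it, with an adjusted p of 0.107 or 0.241 in the exact test and 0.0996 in the quasi-likelihood test. This isogroup was thus far above the counting limits in NBH with DMSO but not in the other NBH library.

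**Figure D3:**
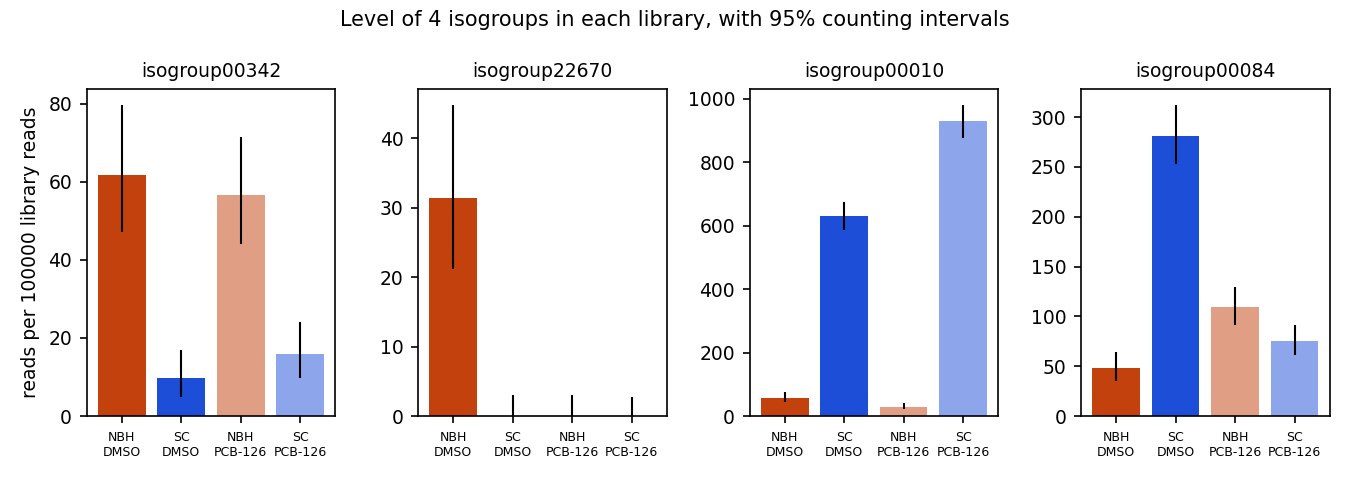
Level of 4 isogroups in reads per 100000 library reads (vertical axis, a separate scale from 0 in each panel) in NBH (orange) and SC (blue) with DMSO and with PCB-126 (paler), 1 library each, with exact 95% Poisson intervals that cover counting error only. Isogroup00342 is higher in NBH and isogroup00010 lower in NBH with both treatments, whereas isogroup22670 and isogroup00084 stand apart in a single DMSO library.

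The isogroups without reads in 1 of the DMSO libraries were counted separately. In all, 116 isogroups (3.25% of the 3570) had 10 to 30 reads in NBH and none in SC. Another 178 (4.99%) had 10 to 62 reads in SC and none in NBH. The median was 12 reads for the 116 and for the 178. NBH with DMSO was the shallower library, so that 0 reads are more likely there at an equal level. All 116 and all 178 were called, since 10 reads against 0 passed the test in both directions. Of the 116 read in NBH alone, 48 (41.4%) had no reads in either PCB-126 library, 12 had reads in NBH with PCB-126 but not in SC with PCB-126, 23 had the opposite pattern, and 33 had reads in both. Of the 178 read in SC alone, 49 (27.5%) had no reads in either PCB-126 library, 34 had reads in SC with PCB-126 but not in NBH with PCB-126, 13 had the opposite pattern, and 82 had reads in both. Of the 116, 9 had 10 or more reads in NBH with PCB-126 and 8 in SC with PCB-126. Of the 178, 9 had 10 or more reads in NBH with PCB-126 and 19 in SC with PCB-126. Of all 3570 isogroups, 330 had no reads in NBH with PCB-126 and 284 had none in SC with PCB-126, each library counted by itself. The 3570 include isogroups of far more reads than these, so that the counts are not like for like.

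Across all called isogroups, the median levels in the PCB-126 libraries were closer to each other than those in the DMSO libraries. The 465 isogroups higher in NBH had a median of 15.7 reads per 100000 in NBH and 1.61 in SC with DMSO, and 4.04 in NBH and 3.01 in SC with PCB-126. The 431 isogroups lower in NBH had a median of 1.05 in NBH and 13.7 in SC with DMSO, and 3.24 in NBH and 4.51 in SC with PCB-126. Over all 3570 isogroups the medians were 9.43 in NBH and 8.87 in SC with DMSO, and 6.47 in NBH and 6.77 in SC with PCB-126. The DMSO values chose the called isogroups and describe the call, whereas the PCB-126 values were not used for it. A smaller gap between the PCB-126 libraries can follow from this choice alone and is no result about PCB-126. The minimum of 10 reads for the 3570 was also applied to DMSO reads only. Their medians with DMSO and with PCB-126 are therefore not like for like. The isogroups called higher made up 9.59% of the NBH reads and 2.03% of the SC reads with DMSO, and 4.0% and 3.26% of the NBH and SC reads with PCB-126. Those called lower made up 1.81% of the NBH reads and 9.25% of the SC reads with DMSO, and 3.69% and 5.09% with PCB-126. Of the 6761 reads of those called lower in SC with PCB-126, 1233 were of isogroup00010.

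**Figure D4:**
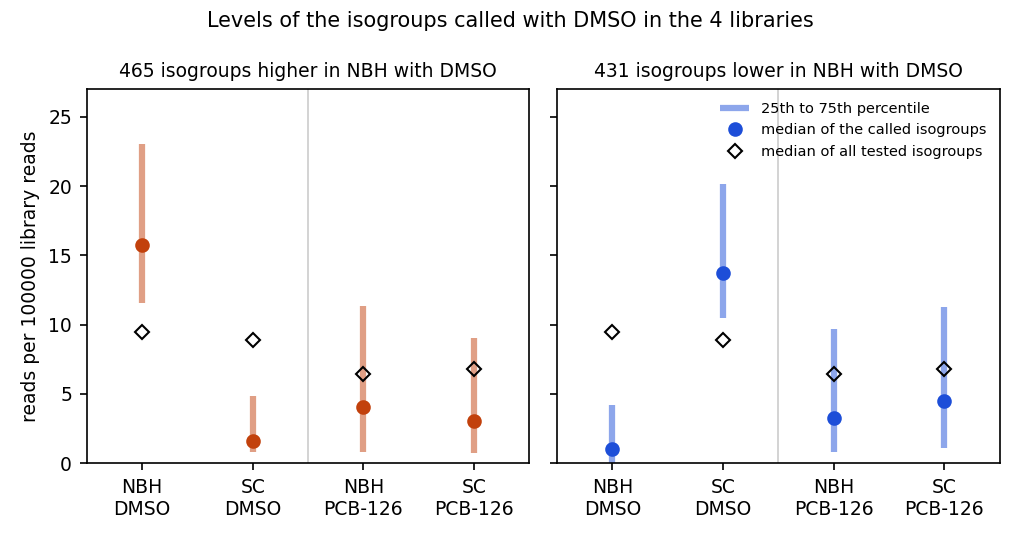
Median (filled circle) and quartile range (bar) of the level, in reads per 100000 library reads (vertical axis), in each of the 4 libraries for the 465 isogroups called higher (left panel) and the 431 called lower (right panel) in NBH with DMSO, with the median of all isogroups tested (open diamond). The medians of the PCB-126 libraries are 4.04 in NBH and 3.01 in SC on the left, and 3.24 in NBH and 4.51 in SC on the right.

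A minority of the called differences was found again between the PCB-126 libraries, which share no library with the DMSO pair. Per the study's methods, the eggs of each site were fertilized before the embryos were treated, so that both libraries of a population share a set of parents, and the population cannot be told apart from these parents. Of the 465 isogroups higher in NBH with DMSO, 242 had at least 10 reads in the PCB-126 pair, and 46 of these (19%, exact 95% interval 14.3% to 24.5%) were called higher in NBH there too, against 9.42% of the 2516 isogroups tested in both pairs. In the opposite direction 19 (7.85%) were called, against 9.5%. Of the 431 isogroups lower in NBH with DMSO, 235 were tested in the PCB-126 pair and 38 (16.2%, exact 95% interval 11.7% to 21.5%) were called lower there, against 9.5% of the 2516, while 22 (9.36%) were called higher, against 9.42%. Both exact intervals treat isogroups as independent trials, which isogroups counted in the same libraries are not. The intervals are therefore no test of whether a difference between the populations recurs. The 46 shared isogroups are 19% of the DMSO calls and 19.4% of the PCB-126 calls tested in both pairs. The 38 are 16.2% and 15.9%. Of the called isogroups, 177 of 242 (73.1%) and 175 of 235 (74.5%) were called in neither direction with PCB-126, against 81.1% of all 2516. Direction alone was shared by 142 of the 242 higher isogroups (58.7%, against 50.2% of all isogroups tested in both pairs) and by 53.6% of the 235 lower ones, against 49.8%.

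The shared calls were not limited to few reads. Among higher isogroups with 50 reads or more in the DMSO pair, 9 of 48 (18.8%) were called higher and 3 of 48 (6.25%) lower with PCB-126, where 5.80% of all 586 such isogroups were called higher. Among lower isogroups with 50 reads or more, 9 of 56 (16.1%) were called lower and 5 of 56 (8.93%) higher. Of the 586, 7.0% were called lower and 5.80% higher, so that both directions were above the share of all. At 10 to 19 reads, 15 of 86 higher isogroups (17.4%) were called higher and 11 (12.8%) lower, against 10.2% and 10.8% of all 974 such isogroups. Of the lower isogroups in this class, 14 of 75 (18.7%) were called lower and 9 (12%) higher. Direction alone was shared by 44.2% of the 86 higher isogroups in this class, against 48.4% of the 974, and by 72.9% of the 48 with 50 reads or more, against 49.8%. For the lower isogroups it was shared by 50.7% of the 75, against 51.6%, and by 55.4% of the 56 with 50 reads or more, against 50.2%. The 46 isogroups called higher with both treatments had a median of 21.0 reads per 100000 in NBH and 4.84 in SC with DMSO, and 17.8 in NBH and 2.63 in SC with PCB-126. The 38 called lower with both treatments had a median of 2.10 in NBH and 16.5 in SC with DMSO, and 3.24 in NBH and 19.6 in SC with PCB-126.

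Over all 2516 isogroups tested in both pairs, the log2 ratios of NBH to SC with DMSO and with PCB-126 had a Pearson correlation of 0.11 and a Spearman correlation of 0.05. Isogroups are not independent replicates, and those of few reads carry large counting errors. With at least 100 reads in each pair, the Pearson correlation across 281 isogroups was 0.21, and it was 0.06 without isogroup00010, so that at this depth it rests on that isogroup.

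**Figure D5:**
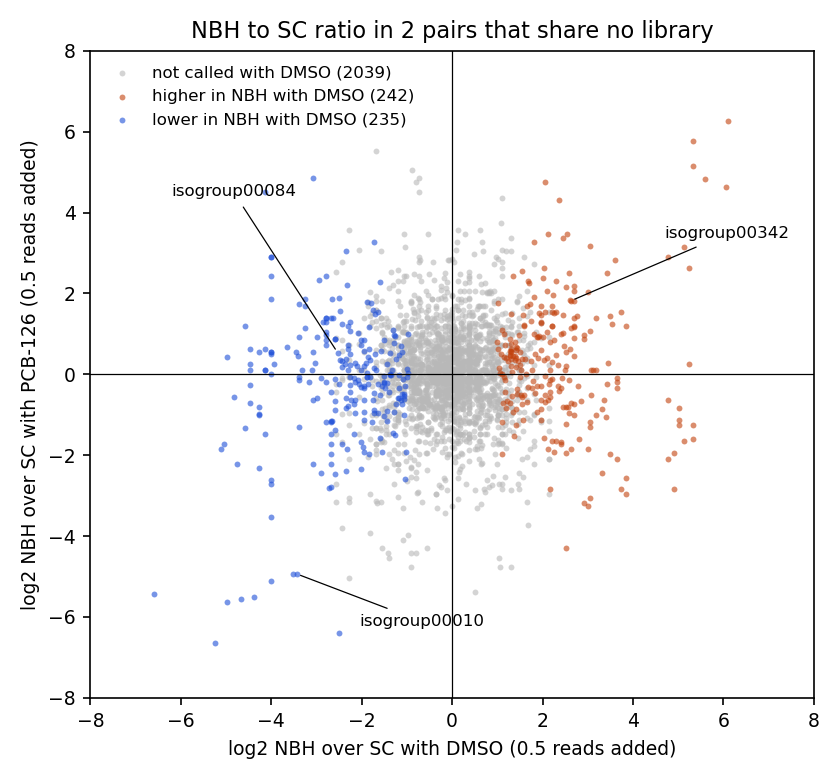
Log2 ratio of NBH to SC with PCB-126 (vertical axis) against the same ratio with DMSO (horizontal axis), with 0.5 reads added to each count, for the 2516 isogroups tested in both pairs. Orange points are the 242 called higher and blue points the 235 called lower in NBH with DMSO. Most called points spread around 0 on the vertical axis, and isogroup00010 and isogroup00342 lie on the same side of 0 in both pairs.

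The NBH to SC ratio differed between DMSO and PCB-126 for 436 of 7149 isogroups whose reads in the 4 libraries together reached 10 (exact conditional test of equal ratios, two-sided, adjusted p under 0.05, counting error only). The ratio was higher with DMSO for 232 isogroups (3.25%) and lower with DMSO for 204 (2.85%). The counts are not broken down by call with DMSO, because the DMSO reads that made the calls also enter this test. For isogroup00342 the ratios did not pass this exact test (adjusted p = 0.522). For isogroup22670, without reads in either PCB-126 library, the test cannot give a difference.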

How the data were processed

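Whole killifish embryos of 10 dpf were sequenced by the authors as 4 3′-anchored, non-normalized cDNA libraries by pyrosequencing. The authors deposited 1 table of counts, whole numbers of uniquely matching reads for each isogroup in each library, without normalization. The study's methods name Newbler for the assembly of shotgun libraries of untreated embryos. Neither whether the isogroups come from it nor which program matched the reads is given in the sources used here. In all, 7 blank cells at the end of the table were read as 0. Because the columns end at different rows, their alignment was checked. Past row 20000, 16 isogroups had at least 10 reads in NBH with DMSO. Of these, 56.2% had at least 5 reads in SC with DMSO in the same row. In rows shifted by 1 to 4 it was 0% to 6.25%. With so few isogroups the check is coarse, and isogroup22670 is past row 20000 too. Libraries of untreated embryos, 2 in number, were not used here.

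Each column's sum served as its library size. Isogroups with at least 10 reads in a pair were compared with Fisher's exact test and Benjamini-Hochberg adjustment over all isogroups tested, calling those under 0.05 that differed by 2-fold or more. For log2 ratios, 0.5 was added to every count. Ratios have exact 95% Clopper-Pearson intervals and levels exact 95% Poisson intervals. Both, and the floor of 3 counts, cover counting error only, and reads without molecular identifiers are not independent molecules. Equality of the NBH to SC ratios with DMSO and PCB-126 was tested with an exact test conditional on the totals of each pair and of each population. The called isogroups of smallest p were named, 2 in each direction. The isogroups compared and this rule were chosen with earlier results of these data known. Alternatives were TMM and DESeq2 library sizes, library sizes without the 10 most abundant isogroups, a minimum of 1 or 30 reads, a ratio of 4 or none, 2 reads added to each count, a thinned SC library, and edgeR. The edgeR fits were the exact test with an assumed coefficient of variation of 0.4 or with the common dispersion of an additive model of population and treatment (1 residual degree of freedom), and the quasi-likelihood test of population in that model. Fisher's exact test, the conditional test, the fold of the quasi-likelihood fit and the exact test with the common dispersion were checked on simulated counts. These had counting error only, without the spread between libraries that the data show.

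Normalization and dispersion came from edgeR 4.0.16 and DESeq2 1.42.0 in R 4.3.3. Tests used scipy 1.17.1 and numpy 2.4.6 in Python 3.11.15, tables pandas 2.3.3, and plots matplotlib 3.10.9.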

Additional observations from a re-analysis of the deposited data

Results flagged for a closer look

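The NBH to SC ratio differed between DMSO and PCB-126 in the exact conditional test for isogroup00084 (adjusted p = 1.55e-25), which was 5.84-fold lower in NBH with DMSO and had a ratio of 1.45 with PCB-126. It also differed for isogroup00010 (adjusted p = 0.000262, exact conditional test), which was lower in NBH with both treatments, 10.9-fold with DMSO and 31.0-fold with PCB-126. Over all isogroups tested, the ratio was higher with DMSO for 232 and lower with DMSO for 204. The test covers counting error only, and each ratio rests on 1 library a side. Isogroup00084 and isogroup00010 were named for their small p with DMSO, and the same DMSO reads enter this test. Their p-values here are therefore no separate support for a difference between the treatments.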

How the results depend on the processing

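The counts of called isogroups (465 higher and 431 lower in NBH) stayed within 1.5 times with TMM, DESeq2 and top-10-free library sizes, with a ratio of 4 or none, and with SC thinned to the NBH depth (370 higher and 297 lower). Which direction had more calls depended on the scaling: 433 were higher and 445 lower with TMM, and 435 higher and 437 lower with DESeq2 library sizes. Without a minimum of reads 429 were higher and 233 lower, and with at least 30 reads 108 were higher and 112 lower. The exact test of edgeR called 0 higher and 1 lower (an isogroup with 0 reads in NBH and 62 in SC with DMSO) with a coefficient of variation of 0.4, and 0 higher and 0 lower with the estimated dispersion, where 565 and 432 isogroups had an unadjusted p under 0.05. Its quasi-likelihood test of population over the 4 libraries, both treatments together, called 9 higher and 8 lower. The median log2 ratio was -0.10 with TMM library sizes, and the correlation between the pairs was 0.16 with at least 30 reads. Of the calls of the 4 named isogroups, those of isogroup00010 and isogroup00342 also passed the quasi-likelihood test, and none passed either exact test of edgeR. The DMSO reads that chose these 4 isogroups enter all of these tests, which are therefore no separate support for the calls. The DMSO difference of these 4 isogroups kept its direction under the 3 other library sizes and both exact tests of edgeR. The quasi-likelihood test, also run for them, gives a population difference over both treatments and not the DMSO difference. Its direction was the same for the 4, with a log2 ratio of -0.98 for isogroup00084 against -2.53 with DMSO. The correlation without isogroup00010 was chosen after seeing the data. No paired analysis was possible because each group has a single library. For the same reason no replicate could be left out.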

Other observations

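Large ratios were more often in the same direction than in opposite directions between the DMSO pair and the PCB-126 pair, a count made after the ratios had been seen and given without a test. At a ratio of at least 2 in both pairs (0.5 reads added), 241 isogroups had the same direction and 191 opposite directions. At 4-fold these were 54 and 28, at 8-fold 16 and 4, and at 16-fold 11 and 1. Of the isogroups at least 2-fold higher with DMSO, 26.0% were 2-fold higher and 20.5% 2-fold lower with PCB-126. The shares of all 2516 isogroups were 17.9% and 16.9%. Of those at least 2-fold lower with DMSO, 24.3% were 2-fold lower and 19.3% 2-fold higher with PCB-126, against 16.9% and 17.9%. At 2-fold both the same and the opposite direction were thus above the share of all. So were both at 4-fold and 8-fold. At 4-fold, 16.7% of the higher isogroups kept their direction and 10% had the opposite one, against 5.17% and 5.37% of all. For the lower isogroups these were 16.4% and 7.34%, against 5.37% and 5.17%. At 8-fold they were 13.2% and 3.77% of the higher, against 1.63% and 1.87%. Of the lower they were 14.8% and 3.28%, against 1.87% and 1.63%. The 11 isogroups at 16-fold were 5 higher and 6 lower in NBH, of the 19 higher and 39 lower at 16-fold with DMSO. These are 26.3% and 15.4%, against 0.596% and 0.914% of all 2516. The opposite direction had 0% of the higher and 2.56% of the lower, against 0.914% and 0.596%. Each step also holds the isogroups of the larger steps, so that the steps are not separate counts.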
